A study of Homo sapiens with 9 samples.

Results

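Bile acid sensing and transport in human enterocytes was followed through 7 genes in Caco-2 cells given a red food colorant. The genes were NR1H4, NR0B2, FGF19, SLC10A2, FABP6, SLC51A and SLC51B, chosen by name as sensors and carriers of the ileal bile acid pathway and found by their NCBI Gene IDs among the 28395 genes counted in every library. The rule that picks them uses no measured value, but the members were chosen with earlier results of these data known. Caco-2 is a human colon carcinoma line, listed as wild type (WT), which forms a layer of enterocyte-like cells when it is left to differentiate. The differentiated cells, all in DMEM with fetal bovine serum and antibiotics, received carmine at 10 µM or carminic acid at 20 µM for 24 h, while the control (untreated) stayed in plain medium, and 3 samples of each kind were sequenced. Carminic acid, a red anthraquinone, comes from cochineal insects, and carmine is the pigment in which it is bound to aluminium. Since the stated concentrations differ, values of both colorants are given side by side without a comparison between them. The cultures are a single tumour line without the liver that normally answers to the intestinal hormone FGF19, and the bile acid content of the serum was not given in the sources used here.

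The nuclear receptor FXR, encoded by NR1H4, binds bile acids and, usually paired with a retinoid X receptor, switches on target genes. In the ileum these include NR0B2, whose product SHP represses other transcription factors, and FGF19, a hormone that travels to the liver and lowers bile acid synthesis. They also include FABP6, a protein that binds bile acids inside the enterocyte, and SLC51A with SLC51B, the α and β subunits of the exporter OST that moves bile acids from the enterocyte into the blood. SLC10A2 encodes the apical sodium-dependent transporter that takes bile acids up from the gut lumen, whose gene FXR is known to lower in mice.

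Total counts ran from 54871018 to 57581301 per library. A level is given here as CPM, a gene's counts scaled to a common library size with TMM factors, and all levels are means ± SD with n = 3 unless said otherwise. Enterocyte genes were present: VIL1, a microvillus protein, CDH17, an intestinal cadherin, and SI, the sucrase-isomaltase, averaged 1200, 1327 and 292 CPM in the control libraries, while KRT20 had no count in any library and CDX1 had 4 counts or fewer. The 10 enterocyte markers together summed to 3172 to 3302 CPM in carmine libraries, 3295 to 3472 CPM in carminic acid libraries and 3166 to 3356 CPM in control libraries. The 12 markers of other cell types summed to 467 to 512, 473 to 532 and 443 to 520 CPM in the same order of groups. Most of that sum was CD68 and COL1A1, whereas MUC2, CHGA, COL1A2, DCN and PTPRC had 3 counts or fewer in every library. Single markers differed within these sums: TFF3, a goblet cell peptide, averaged 20.0 ± 5.16 CPM with carmine and 15.2 ± 0.928 CPM with carminic acid, against 15.1 ± 3.37 CPM in the control (log2 fold change 0.41 with carmine, unadjusted p 0.0350, adjusted p by edgeR 0.436). LCT, the brush border lactase, averaged 18.4 ± 1.04 CPM with carmine and 24.0 ± 0.280 CPM with carminic acid, against 18.7 ± 2.39 CPM in the control (0.36 with carminic acid, unadjusted p 0.00205, adjusted p by edgeR 0.717). Of the 8 enterocyte markers tested, 5 were positive with carmine and 7 with carminic acid, and the part of these markers in the results was not tested. On the first principal component (20.9% of the variance), carmine library C scored 34.5 and the remaining 8 libraries −19.4 to 14.5, so it stood apart. Mitochondrial genes took a share of all counts of 1.19% ± 0.185 with carmine, 1.603% ± 0.433 with carminic acid and 2.30% ± 0.308 in the control, and the part of this share in the results was not tested. Whether the 3 samples of a group were separate cultures is not said in the labels, and the p-values therefore reflect the spread among these samples alone, part or all of which may be technical.

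The genes lie on 7 chromosomes of GRCh38, the build named for the alignments. NR1H4 (NCBI Gene 9971) spans chr12:100473866-100564414 on the plus strand, SLC51A (200931) chr3:196216534-196233427 on the plus strand and SLC51B (123264) chr15:65045387-65053397 on the plus strand. FABP6 (2172) spans chr5:160187381-160238722 on the plus strand, and SLC10A2 (6555) chr13:103043998-103066417 on the minus strand. NR0B2 (8431) spans chr1:26911489-26913975 and FGF19 (9965) chr11:69698238-69704022, both on the minus strand.

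The 250 bases before the start were taken from the RefSeq promoter table (GRCh38.p14), which held 5 of the 7 genes. NR0B2 and FGF19 are named only. A motif bound by FXR with its partner is AGGTCA followed after 1 base by its reverse complement, searched here as AGGTCANTGACCT. The motif reads the same on both strands and has 12 fixed bases, and the closest match in each window is described by how many of those bases it held.

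The windows of SLC51B, FABP6 and SLC10A2 are shown because they hold the closest matches to the FXR repeat among the 5 genes. Each sequence is written 5′ to 3′ on the gene's strand, and the capitals mark the closest match to the FXR repeat.
SLC51B (chr15:65045137-65045386, plus strand): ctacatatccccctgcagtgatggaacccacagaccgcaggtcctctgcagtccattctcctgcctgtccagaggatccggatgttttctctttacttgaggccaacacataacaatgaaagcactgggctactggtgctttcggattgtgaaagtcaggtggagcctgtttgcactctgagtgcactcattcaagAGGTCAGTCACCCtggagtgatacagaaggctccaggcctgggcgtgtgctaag
FABP6 (chr5:160229256-160229505, plus strand): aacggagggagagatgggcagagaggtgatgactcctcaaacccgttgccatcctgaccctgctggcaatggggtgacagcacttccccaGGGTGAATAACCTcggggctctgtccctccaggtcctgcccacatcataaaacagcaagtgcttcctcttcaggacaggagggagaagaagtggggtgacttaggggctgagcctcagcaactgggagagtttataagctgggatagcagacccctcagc
SLC10A2 (chr13:103066418-103066667, minus strand): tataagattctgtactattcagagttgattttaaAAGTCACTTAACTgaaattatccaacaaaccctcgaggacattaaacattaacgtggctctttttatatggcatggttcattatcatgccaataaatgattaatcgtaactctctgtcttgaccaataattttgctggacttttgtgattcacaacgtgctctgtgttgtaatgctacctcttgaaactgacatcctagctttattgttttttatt

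For NR1H4 and FABP6 the table's start lies inside the annotated gene, so these windows belong to one of its starts. The SLC51B window held 10 of the 12 bases of the FXR repeat, from 54 to 42 bases before the start, a match as close as in 0.945% of the 35114 promoters in the table. FABP6 and SLC10A2 held 9 of 12 (8.92% of promoters were as close), and NR1H4 and SLC51A held 8 of 12 (46.5%). These are letters in a window and not measured binding. The windows of NR1H4 and SLC10A2, with 42.0% and 33.2% G and C, were lower in those bases than those of SLC51B (52.8%), FABP6 (56.8%) and SLC51A (65.6%).

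Before any treatment effect, the order of the 7 genes was read on a scale per length, TMM-scaled CPM per kb of a representative transcript. In the control libraries SLC51B was at 60.4 CPM per kb, SLC51A at 8.90, FABP6 at 5.34, NR1H4 at 0.973, SLC10A2 at 0.639, NR0B2 at 0.342 and FGF19 at 0.0240. SLC51B stood above 93.2% of the 15454 tested genes with a known length, SLC51A above 60.0%, FABP6 above 48.4%, NR1H4 above 23.5%, SLC10A2 above 19.3% and NR0B2 above 13.5%. The exporter subunits and the intracellular binding protein were thus the more abundant transcripts, and the sensor, the uptake transporter, the repressor and the hormone were low. In each of the 3 groups the order was this one, and every library of a gene lay above every library of the next gene. Where the length of all annotated exons was used in place of 1 transcript, SLC51A and FABP6 changed places (2.46 and 3.47 CPM per kb in control libraries). SLC51A has 5293 bases of annotated exons and a representative transcript of 1463 bases.

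**Figure D1:**
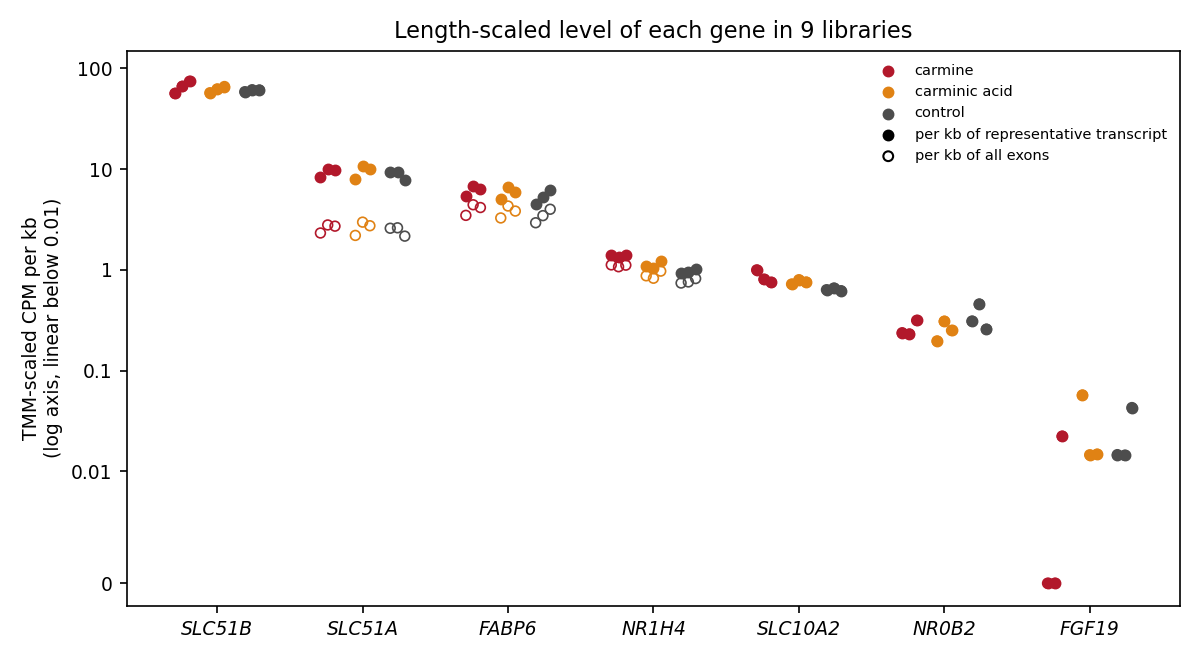
Level of the 7 genes per kb of transcript in each library (vertical axis: TMM-scaled CPM per kb, log scale, linear below 0.01; filled points per kb of 1 representative transcript, open points per kb of all exons; carmine, carminic acid and control from left to right). SLC51B sits near 60 in all groups and FGF19 below 0.1, with 2 carmine libraries at 0, and the open points of SLC51A fall below those of FABP6.

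The first question was whether the colorants changed the sensor. NR1H4 had 237, 219 and 222 counts in carmine libraries A, B and C, 181, 168 and 195 counts in carminic acid libraries and 150, 156 and 170 counts in control libraries. On the CPM scale this was 4.07, 3.90 and 4.05 with carmine, 3.17, 3.0 and 3.53 with carminic acid, and 2.69, 2.76 and 2.98 in the control. Every carmine library was above every control library, and the lowest carminic acid library (B) lay just above the highest control library (C). NR1H4 averaged 4.005 ± 0.0913 CPM with carmine and 2.81 ± 0.152 CPM in the control, a fold of 1.43 (95% interval 1.17 to 1.74). Its log2 fold change was 0.51 (SE 0.135), with an unadjusted p of 0.00191 and an adjusted p of 0.322 by edgeR's quasi-likelihood test over 16017 genes, so it did not pass the threshold of 0.05. By that p NR1H4 was at place 94 of the 16017 genes. Over the alternatives its adjusted p ran from 0.0647 to 0.671, and the log2 fold change ran from 0.48 to 0.56 when 1 library was left out and was 0.51 without carmine library C. With carminic acid, NR1H4 averaged 3.23 ± 0.270 CPM, and the log2 fold change against the control was 0.20 (SE 0.136, interval −0.088 to 0.49, adjusted p by edgeR 0.720, 0.360 to 1 over the alternatives), and it was 0.13 without carminic acid library C. The gap between carminic acid and control libraries rested on the scaling: by library size alone, carminic acid library B was at 2.97 CPM and control library C at 3.01 CPM. In bulk RNA, fewer cells of a type and less RNA per cell cannot be told apart.

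No gene of the whole table had an adjusted p under 0.05 in the edgeR fit of either comparison (0% of 16017 genes each; 11% and 6.43% had an unadjusted p under 0.05), and no gene of the 7 did. At an unadjusted p under 0.05, 2 of the 6 tested members, NR1H4 and SLC10A2, were higher with carmine, against 5.38% of all tested genes, and none was lower, against 5.61%. The same 2 members had all carmine libraries above all controls, against 7.32% of all genes, and no member had all below, against 7.67%. With carminic acid no member had an unadjusted p under 0.05 (2.52% of all genes were higher and 3.91% lower by that rule). NR1H4 and SLC10A2 again lay above every control library, as 12% of all genes did, and no member lay below, as 8.82% did. Both comparisons share the 3 control libraries. Genes above every control library in both treatments made up 2.45% of those tested, NR1H4 and SLC10A2 among them. DESeq2 and limma-voom likewise called no member: the lowest adjusted p among the members was 0.0984 and 0.144 with carmine, and 1 and 0.346 with carminic acid, and they gave 2 members with carmine and 0 with carminic acid at an unadjusted p under 0.05. FGF19 had no adjusted p from DESeq2 with carmine.

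**Figure D2:**
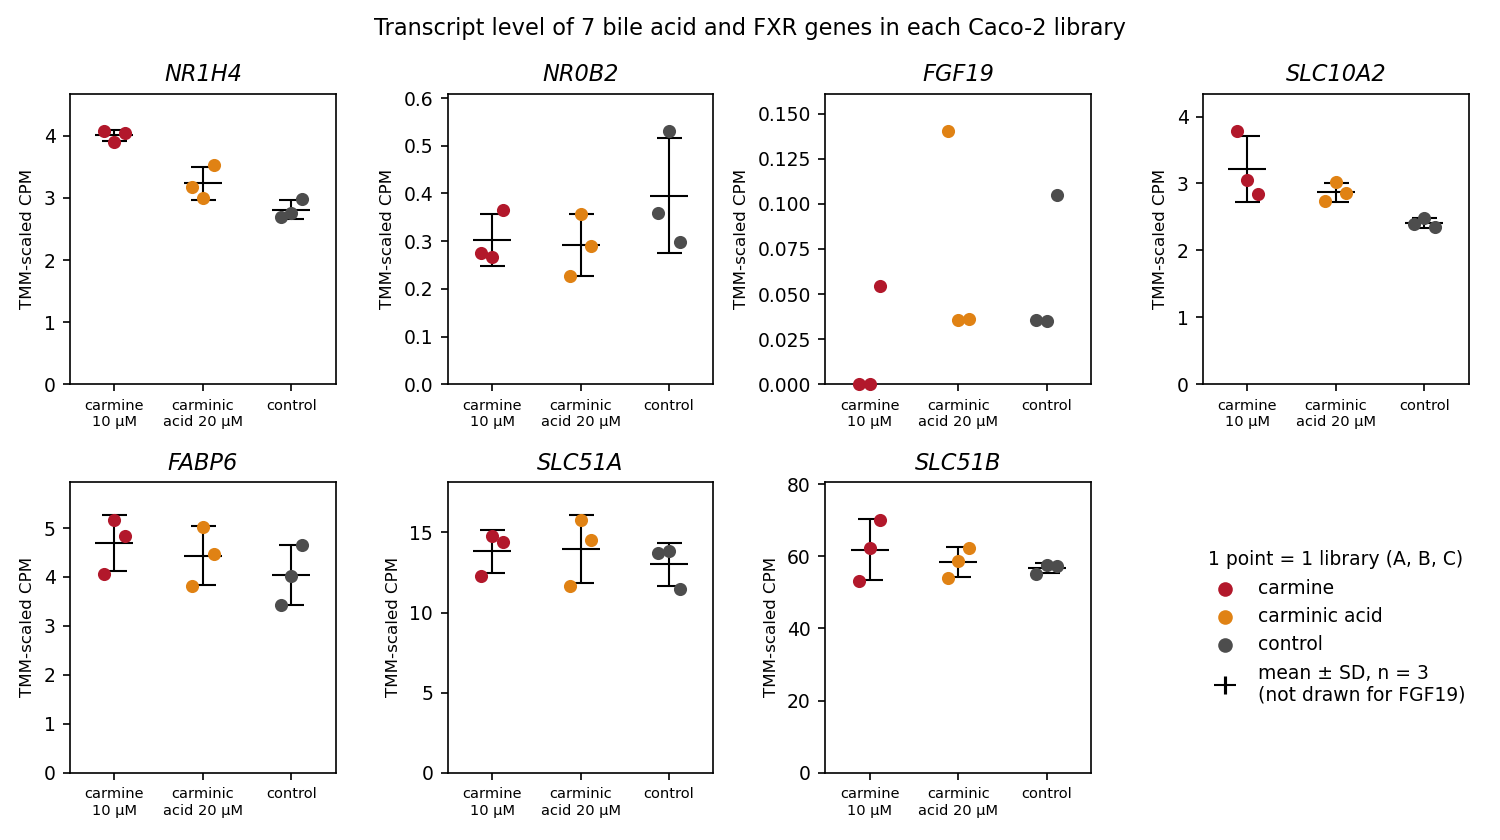
TMM-scaled CPM of the 7 genes in each library (1 panel a gene, each vertical axis from 0; points are libraries A, B and C, and bars are the mean ± SD, n = 3, left out for FGF19). The carmine points of NR1H4 (3.90 to 4.07) and SLC10A2 (2.84 to 3.78) lie above the control points (2.69 to 2.98 and 2.35 to 2.49), and the points of the other genes overlap between groups.

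NR0B2 and FGF19, the targets most often read as reporters of FXR activity, gave few reads. NR0B2, the gene for the repressor SHP, had 16, 15 and 20 counts with carmine, 13, 20 and 16 with carminic acid, and 20, 30 and 17 in the control. The groups overlapped, and the highest library was control library B. It averaged 0.302 ± 0.0541 CPM with carmine and 0.292 ± 0.0647 CPM with carminic acid, against 0.395 ± 0.120 CPM in the control. The log2 fold changes were −0.39 (SE 0.360, interval −1.16 to 0.38) with carmine and −0.44 (SE 0.361, interval −1.21 to 0.33) with carminic acid, with adjusted p by edgeR of 0.689 and 0.749. Control library B moved both values the most, to −0.12 with carmine and −0.17 with carminic acid when it was left out. The intervals run from 0.449 and 0.432 times the control level up to 1.30 and 1.26 times it, so this depth resolved neither a large fall nor a moderate gain.

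FGF19, the hormone that the ileum sends to the liver, had 0, 0 and 3 counts with carmine, 8, 2 and 2 with carminic acid, and 2, 2 and 6 in the control. The summed counts were 3 (exact Poisson 95% interval 0.619 to 8.77), 12 (6.20 to 21.0) and 10 (4.80 to 18.4), and these intervals cover counting error only. For the 2 carmine libraries at 0, a floor of 3 counts is 0.0521 and 0.0531 CPM by library size alone, and the exact two-sided interval of a count of 0 reaches 3.69 counts. FGF19 did not pass the filter on low counts, so no test was made, and 6 of the 7 genes entered the tests. Both genes were thus low in the controls as in the treated cells, at a depth of 54871018 counts or more.

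SLC10A2, the uptake transporter, had 220, 171 and 156 counts with carmine, 156, 169 and 158 with carminic acid, and 134, 141 and 134 in the control. These were 3.78, 3.05 and 2.84 CPM with carmine, 2.73, 3.02 and 2.86 CPM with carminic acid, and 2.40, 2.49 and 2.35 CPM in the control. Both treated groups lay above all controls, carmine library A being the highest of the 9. SLC10A2 averaged 3.22 ± 0.492 CPM with carmine and 2.41 ± 0.0723 CPM in the control, a fold of 1.34 (interval 1.06 to 1.68). The log2 fold change was 0.42 (SE 0.154, unadjusted p 0.0164, adjusted p by edgeR 0.391, 0.157 to 0.671 over the alternatives). Without carmine library A it was 0.29 with an unadjusted p of 0.0906, and without carmine library C it was 0.50. With carminic acid SLC10A2 averaged 2.87 ± 0.143 CPM, and the log2 fold change against the control was 0.25 (SE 0.154, interval −0.080 to 0.58, adjusted p by edgeR 0.717, 0.346 to 1 over the alternatives).

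FABP6, which binds bile acids inside the enterocyte, had 236, 290 and 266 counts with carmine, 218, 281 and 247 with carminic acid, and 191, 228 and 266 in the control. It averaged 4.69 ± 0.573 CPM with carmine and 4.44 ± 0.600 CPM with carminic acid, against 4.04 ± 0.619 CPM in the control. Library B was highest in both treated groups and library C in the control, and the groups overlapped. The log2 fold changes were 0.22 (SE 0.157, interval −0.12 to 0.55) with carmine and 0.14 (SE 0.157, interval −0.20 to 0.47) with carminic acid, with adjusted p by edgeR of 0.606 and 0.804. With each library left out, FABP6 ran from 0.11 (without control A) to 0.33 (without control C) with carmine and from 0.021 to 0.25 (without the same libraries) with carminic acid. FABP6 shares 109 bases of exon, 9.36% of its own, with the antisense gene AC008609.1.

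The exporter subunits were the best measured of the 7. SLC51B had 3094, 3498 and 3847 counts with carmine, 3078, 3293 and 3436 with carminic acid, and 3082, 3268 and 3277 in the control. In CPM it was 53.1, 62.3 and 70.1 with carmine, 53.9, 58.8 and 62.2 with carminic acid, and 55.2, 57.7 and 57.4 in the control, so both treated groups spread to either side of the controls. The log2 fold change was 0.12 (SE 0.0952, interval −0.081 to 0.33, adjusted p by edgeR 0.625) with carmine and 0.038 (SE 0.0952, interval −0.17 to 0.24, adjusted p 0.916) with carminic acid. The carmine value depended on single libraries, at 0.22 (unadjusted p 0.0215) without carmine library A and 0.028 without carmine library C. The carminic acid value was −0.019 without carminic acid library C. The upper ends of the intervals were folds of 1.25 with carmine and 1.18 with carminic acid, which is the largest gain of SLC51B that these intervals allow.

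SLC51A, the α subunit, had 717, 831 and 790 counts with carmine, 665, 884 and 803 with carminic acid, and 766, 785 and 654 in the control. It averaged 13.8 ± 1.34 CPM with carmine and 13.99 ± 2.12 CPM with carminic acid, against 13.02 ± 1.35 CPM in the control. The groups overlapped throughout, and carminic acid library B was the highest. The log2 fold changes were 0.088 (SE 0.124, interval −0.18 to 0.35) with carmine and 0.10 (SE 0.124, interval −0.16 to 0.37) with carminic acid, with adjusted p by edgeR of 0.806 and 0.808. With each library left out, SLC51A ran from 0.0075 (without control C) to 0.17 (without carmine A) with carmine and from 0.0074 (without carminic acid B) to 0.21 (without carminic acid A) with carminic acid. SLC51A shares 389 exon bases (7.35% of its exons) with PCYT1A on the other strand and SLC51B shares 60 (6.38%) with RASL12, and the strand setting of the counting was not given in the sources used here. PCYT1A was at 41.1 ± 3.03 CPM with carmine and 46.1 ± 2.99 CPM with carminic acid, against 44.9 ± 0.991 CPM in the control, and RASL12 at 23.7 ± 4.06 and 23.5 ± 1.49 CPM, against 21.3 ± 0.718 CPM.

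OST works only as a pair of both subunits, so their ratio was compared as well. Per kb of the representative transcript, SLC51B was 6.95 ± 0.552 times SLC51A with carmine and 6.55 ± 0.709 times with carminic acid, against 6.85 ± 0.832 times in the control (SD, n = 3). Across libraries the ratio ran from 6.55 to 7.58 with carmine, 5.80 to 7.20 with carminic acid and 6.26 to 7.80 in the control. An exact two-sided permutation test of the log2 ratio gave p = 0.7 for carmine and p = 0.7 for carminic acid, where 0.1 is the smallest p that 3 against 3 libraries allow. Per kb of all annotated exons, the ratio was 25.1, 23.7 and 24.8 in the same groups, so its size depends on the length used.

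Some fold changes, small and larger ones alike, moved in a fit that allowed for the length and base composition of transcripts. In each library, the deviation of log2 CPM from the gene's mean was fitted on transcript length and GC content, and these trends were removed. This also removes such differences within a group, so the spread behind the p-values changes as well. The carmine values of SLC51A, SLC51B and FABP6 then came to 0.0048, 0.031 and 0.11. NR1H4 was at 0.50 (adjusted p by edgeR 0.0748), SLC10A2 at 0.43 (0.157) and NR0B2 at −0.50 (0.497). With carminic acid, NR1H4 came to 0.30 (unadjusted p 0.0453) and SLC10A2 to 0.34 (unadjusted p 0.0371), and both adjusted p were above 0.6. The transcripts of NR1H4 and SLC10A2 are the poorest in G and C of the 7, at 40.6% and 40.5%, against 50.6% to 59.3% in the others.

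**Figure D3:**
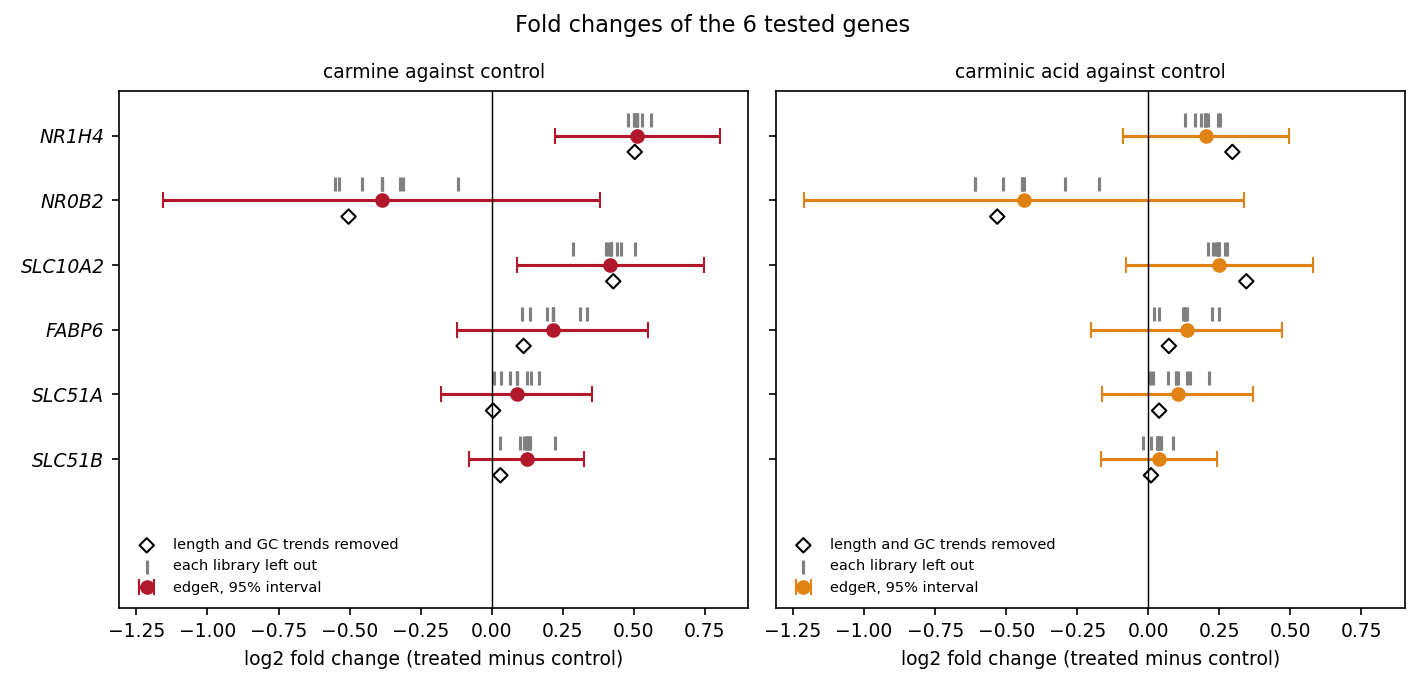
Log2 fold change of the 6 tested genes against the control (horizontal axis; left carmine, right carminic acid; points with 95% intervals from edgeR, grey ticks with each of the 9 libraries left out, diamonds with length and GC trends removed). With carmine the intervals of NR1H4 (0.22 to 0.80) and SLC10A2 (0.089 to 0.75) lie above 0, and all carminic acid intervals include 0.

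Beyond the 7 genes, lists of other genes of the pathway were read from the same fit. Of the 6 members tested, 5 had a positive and 1 a negative log2 fold change in each comparison, with medians of 0.17 (carmine) and 0.12 (carminic acid). Over all tested genes the medians were 0.0066 and −0.0078, and 51.7% and 48.1% of genes were positive. No gene of any pathway list passed the adjusted threshold in the edgeR fit. Retinoid X receptors are FXR's partners, and the list of partners and upstream regulators had 13 of 15 genes tested, of which 6 were positive and 7 negative with carmine (median −0.039) and 10 were positive and 3 negative with carminic acid (median 0.074). RXRA, the partner with the most counts, averaged 305 ± 7.75 CPM with carminic acid and 269 ± 11.6 CPM in the control. Its log2 fold change was 0.18 (unadjusted p by edgeR 0.0336). With carmine RXRA averaged 292 ± 31.1 CPM (0.12, or 0.041 without carmine library C). With trends of length and GC removed, RXRA was at 0.076 with carminic acid and 0.029 with carmine. The corepressor NCOR1 averaged 158 ± 20.1 CPM with carmine and 179 ± 10.4 CPM in the control, a log2 fold change of −0.18 (−0.27 without carmine library A, −0.082 without carmine library C and −0.073 with those trends removed). With carminic acid it was at 0.014, or −0.012 by library size alone. HNF4A, a transcription factor of liver and gut, was the most abundant of the list, at 1050 ± 13.8 CPM with carmine and 1183 ± 41.1 CPM with carminic acid, against 1100 ± 35.6 CPM in the control. RXRB varied widely within groups, from 0.0343 to 1.82 CPM with carmine and 0.0714 to 7.49 CPM with carminic acid. In the control it ran from 0.193 to 4.10 CPM. The level and fold change of RXRB are therefore not known from these counts. How reads with several places were counted was not given, and the cause of the spread was not tested.

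The other bile acid sensors were all tested, 5 of 5, with 2 positive and 3 negative with carmine (median −0.060) and 4 positive and 1 negative with carminic acid (median 0.075). VDR, the vitamin D receptor, which also binds the bile acid lithocholic acid, averaged 15.5 ± 0.869 CPM with carmine and 16.1 ± 0.167 CPM with carminic acid, against 14.98 ± 0.302 CPM in the control. The nuclear receptor CAR, NR1I3, was the highest of these by CPM, with log2 fold changes of −0.060 with carmine and 0.075 with carminic acid. S1PR2, a receptor for conjugated bile acids, was at −0.18 and 0.079. Of the FGF19 receptor genes, 5 of 5 were tested, 3 positive and 2 negative in both comparisons (medians 0.011 and 0.021). FGFR4, the receptor of FGF19 in liver, averaged 280 ± 49.0 CPM with carmine (log2 fold change 0.17) and 296 ± 12.4 CPM with carminic acid (0.25, unadjusted p 0.0233, adjusted p by edgeR 0.717), against 249 ± 10.4 CPM in the control. The carmine value was 0.027 without carmine library C and 0.26 without carmine library B. With trends of length and GC removed, the carmine value was 0.12 (unadjusted p by edgeR 0.0217, adjusted p 0.198). In that fit the carminic acid value was 0.14 (unadjusted p by edgeR 0.00716, adjusted p 0.466).

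Other known FXR targets, mostly described in liver, had 18 of 20 genes tested, with 11 positive and 7 negative with carmine (median 0.049) and 16 positive and 2 negative with carminic acid (median 0.057). ABCB11, the bile salt export pump of hepatocytes, and APOC2 had no count in any library. Since the annotation behind the counts was not given in the sources used here, a count of 0 need not mean lack of expression. APOC3, an apolipoprotein whose gene FXR lowers in liver, averaged 718 ± 82.0 CPM with carmine and 574 ± 37.8 CPM in the control, a log2 fold change of 0.32 (unadjusted p 0.00265, adjusted p by edgeR 0.332) with no overlap. It passed only with length and GC trends removed (log2 fold change 0.23, adjusted p by edgeR 0.0236). In that fit 201 of all 16017 tested genes were called with carmine. FGA, the fibrinogen α chain, averaged 160 ± 3.79 CPM with carminic acid and 137 ± 1.96 CPM in the control. Its log2 fold change was 0.22 (unadjusted p by edgeR 0.00299). FGA likewise passed only with those trends removed (0.28, adjusted p by edgeR 0.0440), where 4 genes were called with carminic acid. APOC3 with carmine and FGA with carminic acid also passed with the trends removed and the replicate letter as a block. With the other colorant, APOC3 averaged 639 ± 49.4 CPM with carminic acid (log2 fold change 0.16), overlapping the control. FGA averaged 149 ± 5.22 CPM with carmine (log2 fold change 0.13). Every carmine library of FGA was above every control library, as in 7.32% of all tested genes.

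The other bile acid carriers had 6 of 7 genes tested, with 4 positive and 2 negative with carmine (median 0.0498) and 3 of each sign with carminic acid (median 0.025). SLCO2B1, an organic anion uptake carrier, was the most abundant, at 1268 ± 49.7 CPM with carminic acid and 1123 ± 57.3 CPM in the control (log2 fold change 0.18, adjusted p by edgeR 0.717), and 0.066 with carmine. ABCC4, an efflux pump, was at −0.14 with carmine and −0.089 with carminic acid. SLCO1B1, a liver uptake carrier, was close to the floor, at 0.271 ± 0.0331 CPM with carmine and 0.119 ± 0.0254 CPM with carminic acid, against 0.265 ± 0.0869 CPM in the control. Its carminic acid value was −1.15 on the log2 scale (unadjusted p 0.0211, adjusted p by edgeR 0.717).

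The enzymes of bile acid synthesis and conjugation had 11 of 13 genes tested, with 9 positive and 2 negative with carmine (median 0.095) and 7 positive and 4 negative with carminic acid (median 0.045). CYP8B1, the sterol 12α-hydroxylase that shifts synthesis towards cholic acid, averaged 2.57 ± 0.0611 CPM with carmine and 2.52 ± 0.307 CPM with carminic acid, against 1.83 ± 0.208 CPM in the control. All 6 treated libraries were above all controls, as in 2.45% of all tested genes, and both comparisons share the 3 control libraries. The log2 fold changes were 0.49 (unadjusted p 0.00945) and 0.46 (unadjusted p 0.0137), with adjusted p by edgeR of 0.380 and 0.717. CYP7A1, the rate-limiting enzyme of the classic pathway, had 8 counts or fewer in every library and was not tested. SCP2, a sterol carrier protein and the most abundant of the list, was at 0.032 and −0.020. These counts describe the lists and are no test of them.

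**Figure D4:**
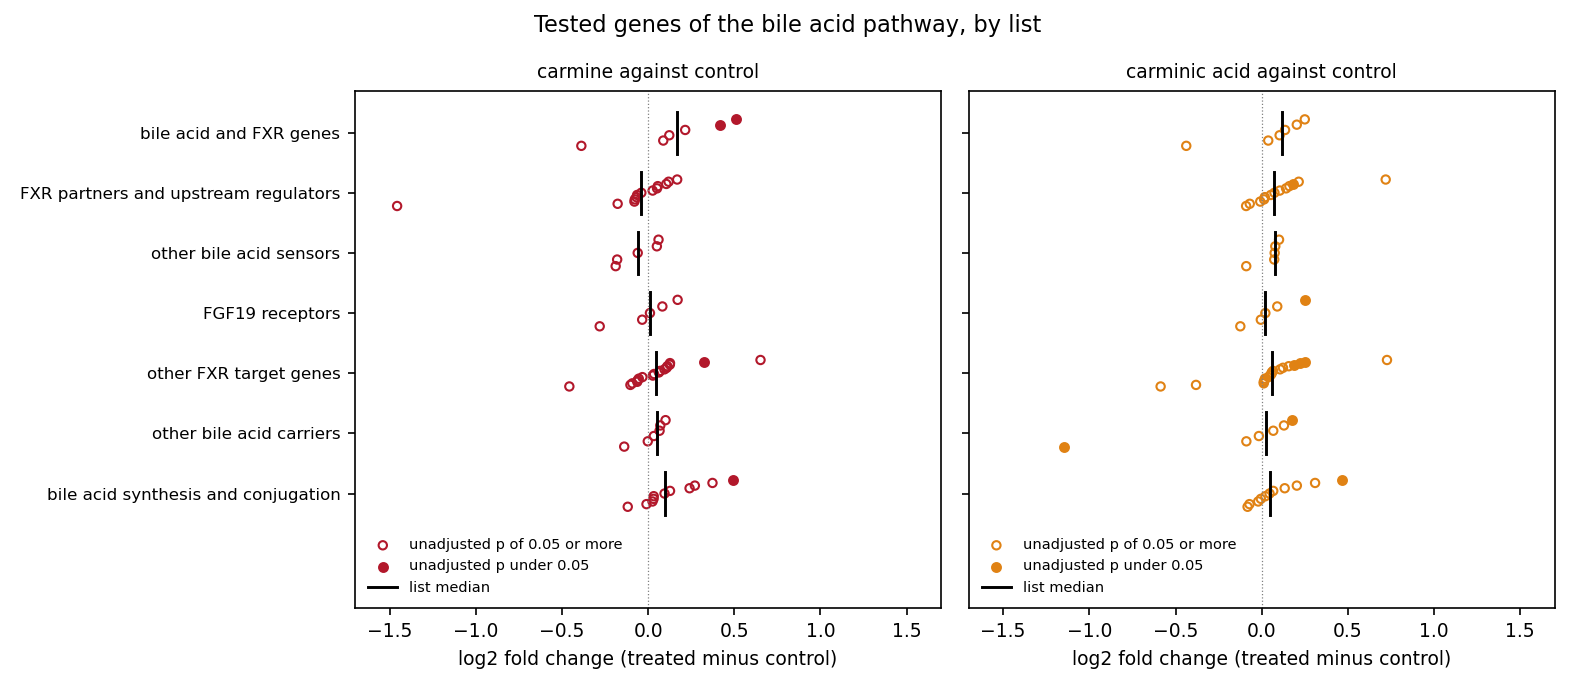
Log2 fold change against the control of each tested gene in 7 lists of the bile acid pathway (horizontal axis; 1 point a gene, filled where the unadjusted p was under 0.05, black bar at the list's median; left carmine, right carminic acid). Most genes lie within 0.3 of 0, and NR1H4 (0.51) and SLC10A2 (0.42) are the filled points of the top row with carmine.

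As a description over the 9 libraries, the members of average log2 CPM of at least 0 were set beside 13237 genes of at least the same level. NR1H4 and SLC10A2 had a Pearson r of 0.76 with each other. This made NR1H4 number 80 among the genes most like SLC10A2, and SLC10A2 number 270 among those most like NR1H4. SLC51A and SLC51B, whose proteins form 1 exporter, had an r of 0.58, and SLC51B and FABP6 an r of 0.67. Many genes were closer: SLC51B was number 1076 for SLC51A, and SLC51A number 2552 for SLC51B. FABP6 was number 1818 for SLC51B, and SLC51B number 460 for FABP6. The r of NR1H4 with SLC51A was 0.093, and that of SLC51B with SLC10A2 was −0.036. The genes most like NR1H4 were CHP2 (0.95), NPTN (0.95) and STEEP1 (0.95), and those most like SLC10A2 were ANOS1 (0.92), CUTALP (0.91) and SERPINA5 (0.90). For SLC51B they were PET117 (0.97), EEF1B2 (0.96) and HAUS4 (0.96), for SLC51A CDH23 (0.94), FHIT (0.92) and RPL12 (0.91), and for FABP6 PGCKA1 (0.92), KDM4D (0.91) and GLRX (0.90). Without the 2 libraries farthest from the member's median, the r of ANOS1 with SLC10A2 was 0.74 and that of CHP2 with NR1H4 was 0.91. The 9 points of each r share the 3 groups and the scaling, and the highest of 13237 values is high by selection.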

How the data were processed

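Total RNA of differentiated Caco-2 cells was isolated with a column kit and sequenced, 3 samples in each of 3 groups, per the labels' protocols. The authors deposited raw counts per gene for each library, named by NCBI Gene ID and not normalized. Per the file headers, HISAT2 made the alignments. The submitters' processing notes name FastQC, HISAT and featureCounts, with no version, and hg38 as the build. Strand setting, annotation, library kit and the handling of reads with several places were not given in the sources used here. Reads of exons shared with a gene on the other strand cannot be told apart.

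Of the 28395 genes in the files, 27745 had a symbol in the RefSeq table of GRCh38.p14. Transcript lengths and GC content came from GENCODE transcripts on GRCh38 and were known for 15454 (96.5%) of the tested genes. The counts were fitted with edgeR 4.0.16 in R 4.3.3: filterByExpr by group with a minimum count of 10 left 16017 genes, libraries were scaled by TMM, and all 9 libraries were fitted in 1 robust quasi-likelihood model with no covariate. Both contrasts were tested two-sided, with Benjamini-Hochberg adjustment over all tested genes and a threshold of 0.05. Each standard error was derived from F and the log2 fold change, and the 95% intervals are of that fit, whose biological coefficient of variation was 10.9%. Every pair of libraries within a group differed beyond sampling noise. Log2 CPM for the likeness between genes used a prior count of 2. The FGF19 floor was 3 counts in a library.

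Alternatives were other scalings and filters, DESeq2 1.42.0, limma-voom (limma 3.58.1) with quality weights, a block for the replicate letter, estimation without robustness, a stricter threshold of 0.01, fits of only the 6 libraries concerned, length and GC trends removed by loess with a span of 0.3, and each library left out. Named pathway genes were those past the threshold, the smallest p of each list in each comparison, and the highest CPM of each list. ABCB11, APOC2, CYP7A1, RXRB, the marker genes and the genes that share exons with a member stand outside that rule and were named after their values were seen. The members and lists were chosen with earlier results of these data known. Some items are not reported here.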

Additional observations from a re-analysis of the deposited data

How the results depend on the processing

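In no alternative did a member of the set pass the threshold, in either comparison. The members kept their direction in all recomputed values but 1, SLC51B with carminic acid, which turned without carminic acid library C and ran from −0.019 to 0.085 with each library left out. The number of all genes called with carmine was 0 in the edgeR fit reported (1760 genes at an unadjusted p under 0.05) and 7 with RLE size factors, 7 with library size alone, 19 without a filter beyond 1 count, 75 with DESeq2, 51 with limma-voom, 12 with only the 6 libraries compared, 201 with length and GC trends removed and 363 with these trends removed and the replicate block. It ran from 0 to 36 with each library left out, 36 being without carmine library C. With carminic acid it was 0 in the fit reported (1030 genes at an unadjusted p under 0.05), and 2 without a filter beyond 1 count, 8 with DESeq2, 82 with limma-voom, 49 with only the 6 libraries compared, 4 with trends removed and 17 with trends removed and the replicate block, and 0 to 21 with each library left out, 21 again without carmine library C. The causes were not tested. Correlations of deviations from the group mean ran from −0.149 to 0.0952 for libraries of the same letter and from −0.162 to 0.156 for different letters. The letters A to C thus showed no pairing, but 3 libraries a group cannot settle whether a letter marks a shared batch. With the replicate block alone, 0 genes were called in either comparison and NR1H4 with carmine was at 0.51 (adjusted p by edgeR 0.427).

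Among the named pathway genes, SLCO1B1 with carmine was at −0.034 with trends removed and −0.023 with the replicate block as well, and ran from −0.19 to 0.29 with each library left out. With carminic acid, NCOR1 was at −0.012 by library size alone (−0.037 to 0.054 with each library left out), S1PR2 at −0.00043 and −0.018 under the same pair of trend settings (−0.037 to 0.22 with each library left out) and SCP2 at 0.066 and 0.067. NR1I3 ran from −0.16 to 0.0060 with carmine and −0.020 to 0.15 with carminic acid when each library was left out. With 13 to 30 counts a library for NR0B2 and 8 or fewer for FGF19, depth limits what can be said of both.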
